A study of Mus musculus with 4 samples.

Results

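The serpins are a family of protease inhibitors and related proteins, and 55 of the 20909 genes in the authors' deposited table belong to it. A gene was taken as a member when its symbol was Serpin followed by a clade letter from a to i and a number, whatever its values. Each gene has 1 probe. Clades a, c, d, f and g, which hold the plasma serpins secreted by hepatocytes, had 25 members, and clades b, e, h and i had 30. The first group is called the secreted clades below, a label for the group that does not hold for each of its members. All 55 symbols are current names in the RefSeq gene table for assembly GRCm38.p6, from which chromosomes were read, and 52 were also matched through their transcript accession.

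A serpin inhibits a protease by offering its reactive loop as bait: once the loop is cut, the inhibitor changes shape and traps the enzyme. Hepatocytes release alpha-1-antitrypsin, antithrombin, antiplasmin and C1 inhibitor into the blood, where they restrain leukocyte elastase, clotting, fibrinolysis and complement. Some members lack the inhibitory function and carry hormones or act as chaperones, and clade b proteins stay mostly inside cells. In mice the Serpina1 and Serpina3 genes have multiplied into neighbouring near-copies, so their probes may cross-hybridise.

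RNA came from livers of Wrn mutant mice and of wild-type mice, all untreated C57Bl/6 males aged 3 months, fed freely under 12 h of light and 12 h of darkness on a reversed cycle. Wrn encodes a RecQ DNA helicase whose human counterpart is lost in Werner syndrome. The labels name neither the allele nor the altered part of the protein. Each of 4 two-colour arrays held 1 mutant and 1 wild-type liver, called a pair here, with the mutant in Cy3 in pairs 1 and 2 and in Cy5 in pairs 3 and 4.

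Every value below is a log2 ratio, read as Wrn mutant over wild type. The numerator is not stated, and this direction is likely because the titles of the samples, and of the authors' table, put the mutant first. All signs would turn if it were wrong. Across 2566 named genes with an average log2 intensity of at least 10, arrays of opposite dye orientation correlated at 0.36 to 0.63 and arrays of the same orientation at 0.32 to 0.66. Across all named genes, most of them dimmer, the correlations were near 0, at 0.0050 to 0.056 for opposite orientations and 0.10 to 0.16 for the same one. These are across genes, which are not independent replicates. The probe for Wrn itself had 1.77, 0.91, 1.12 and 1.37 in pairs 1 to 4, above 0 in every pair (adjusted p = 0.736, limma). Whether the probe lies in the altered part is not known, so it gives no check of the genotypes. Hepatocyte markers, 14 of 16 of them measured, had average log2 intensities of 9.07 to 15.8, well above the named-gene median of 6.40.

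No serpin passed the test. Of the 55 members, 52 had at least 3 values and entered a limma fit with a dye term over 40238 probes. An adjusted p under 0.05 was reached by 0 of these 52 (lowest 0.736, highest 0.989) and by 0% of all probes. At an unadjusted p under 0.05 there were 9 serpins, 7 higher and 2 lower in the mutant, which is 17.3%, against 9.26% of 20379 named genes (4.74% higher and 4.52% lower) and 6.64% of all probes. This count rests on pair 1: without it 3 of 47 serpins were under 0.05, against 8 to 10 without each other pair, and the opposite reading of the dye swap gave 3 of 52. Over all probes, 2586 of 38090 were under 0.05 without pair 1, and 2685 of 40238 under the opposite reading. Without pairs 2, 3 and 4 there were 2965 of 35985, 2130 of 35983 and 2541 of 36020. Among the 7 higher serpins of the main fit, Serpina12 and Serpinb12 rested on 3 values. With a prior variance that follows intensity, 42 named genes (0.206%) and 0 serpins passed, and without the dye term as well 40 (0.196%) and 0. For 1 gene in 4 pairs, an exact sign-flip test, two-sided, can go no lower than p = 0.125. With the dye term, the limma tests measure the spread between pairs of the same dye orientation, moderated toward that of all probes. This is not the SD over pairs printed below: Serpina12 had an SD of 2.34 and a standard error of 0.20.

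The medians of the secreted and the other clades lay on opposite sides of 0. Over 24 members of clades a, c, d, f and g the median log2 ratio was -0.14, with 16 means below 0 and 8 above. Over 28 members of clades b, e and h it was 0.10, with 13 means below 0 and 15 above. Over all named genes it was 0.04, with 46.5% of means below 0. In the secreted clades the pair medians were -0.17, -0.15, -0.36 and -0.01 in pairs 1 to 4, all below 0. In clades b, e and h they were 0.66, 0.06, 0.10 and -0.26, with pair 1 far above the rest. The median of clades b, e and h turned sign without pair 1, to -0.22, and among the 7 members brighter than the median named gene, to -0.06. In the secreted clades, 15 members with an average log2 intensity of at least 10 had a median of -0.18. The 9 tested members under 10 had a median of 0.03, with 4 means below 0 and 5 above. All members of clades b, e, h and i were under 10.

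Of 23 secreted-clade members with 4 values, 7 were lower and 3 higher in 4 of 4 pairs. Among the 8 of them with an average log2 intensity under 10, 0 were lower and 1 was higher. Of 20 members of clades b, e and h, 1 was lower and 5 were higher. Among 17686 named genes with 4 values 10.1% were lower and 10.9% higher in every pair. The difference between the clades has no test.

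**Figure D1:**
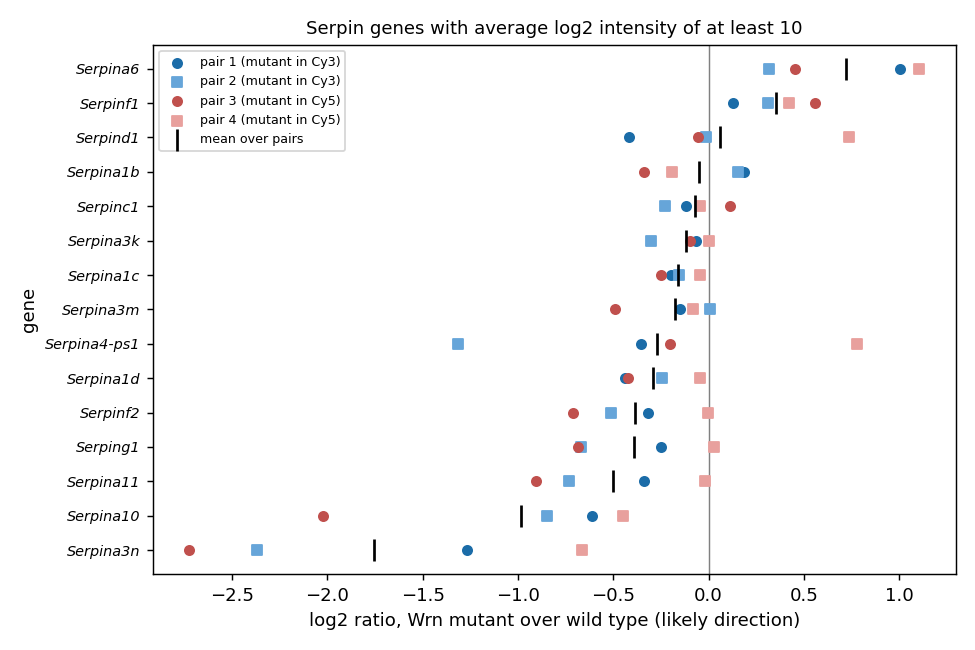
Log2 ratio of the 15 serpin genes with an average log2 intensity of at least 10, a point for each of 4 pairs and a bar for their mean. The horizontal axis is the log2 ratio of Wrn mutant over wild type in its likely direction. Serpina3n and Serpina10 lie left of 0 in every pair, at means of -1.76 and -0.98, and Serpina6 and Serpinf1 lie right of 0 in every pair, at 0.72 and 0.35.

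The lowest mean was that of Serpina3n, an acute phase inhibitor related to human alpha-1-antichymotrypsin. It had log2 ratios of -1.26, -2.37, -2.72 and -0.67 in pairs 1 to 4, all below 0. They averaged -1.76 ± 0.96 (SD, n = 4), a mutant level 0.296-fold that of wild type, with a standard error of 0.44 and an unadjusted p of 0.0161 (adjusted p = 0.736, limma). The means of the dye orientations were close, at -1.82 with the mutant in Cy3 and -1.69 with it in Cy5. In bulk liver fewer cells of a type and less RNA per cell cannot be told apart.

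The other Serpina3 genes lay nearer 0 or scattered. Serpina3k, known as contrapsin, averaged -0.12 ± 0.13 (SD, n = 4), with pairs from -0.30 to -0.00035. Serpina3m was at -0.18 ± 0.22, with pair 2 just above 0 and the other pairs below. Both were even between pairs, as was Serpina3c at -0.14 ± 0.21. Serpina3g, an inhibitor of lysosomal cathepsins, had pairs on both sides of 0 and a mean of 0.25 ± 0.53. Serpina3f was above 0 in every pair, at 0.51, 0.55, 0.27 and 1.82, averaging 0.79 ± 0.70 with an unadjusted p of 0.0633. Its pair 4 stood well above the others. Serpina3b, a dim probe with an average log2 intensity of 4.01, spanned -2.91 to 1.44. Serpina3a had values in 2 pairs, 0.44 in pair 2 and 2.25 in pair 4, and was not tested.

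The Serpina1 genes encode alpha-1-antitrypsin, the main plasma inhibitor of neutrophil elastase, and their values were small. Serpina1b had 0.18, 0.16, -0.34 and -0.19 in pairs 1 to 4, averaging -0.05 ± 0.26 (SD, n = 4). Where the mutant was in Cy3 its values were above 0, and where it was in Cy5 they were below. Serpina1c was below 0 in every pair, at -0.20, -0.15, -0.25 and -0.04, and its mean of -0.16 ± 0.09 had the smallest spread of all serpins with 4 values. Serpina1d was also below 0 in every pair, at -0.44, -0.25, -0.42 and -0.05, averaging -0.29 ± 0.18. Their unadjusted p values were 0.754, 0.338 and 0.148. Probes of these near-copies may read one another's RNA. Serpina1b, Serpina1c, Serpina3k and Serpina3m had average log2 intensities of 15.3 to 15.9, where the highest of any named gene was 15.9. Whether signals this close to the top kept their ratios and spreads small was not tested. Serpina1f, a dim relative, ran from -0.95 to 0.70.

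Among serpins that act on clotting and fibrinolysis, Serpina10 read lowest. It encodes the protein Z-dependent protease inhibitor, which blocks activated factor X. Its ratios were -0.61, -0.85, -2.02 and -0.45, below 0 in every pair and lowest in pair 3. They averaged -0.98 ± 0.71 (SD, n = 4), or 0.506-fold in the mutant, with an unadjusted p of 0.0361 (adjusted p = 0.736, limma). Without pair 3 the fitted value was -0.59.

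Serpinf2, alpha-2-antiplasmin, had ratios of -0.32, -0.51, -0.71 and -0.01, averaging -0.39 ± 0.30 (SD, n = 4) with an unadjusted p of 0.116. Pair 4 was at about 0 while the other pairs were below it. Serpinc1, antithrombin, averaged -0.07 ± 0.14, with pairs on both sides of 0 within a narrow range. Serpind1, heparin cofactor II, had -0.42, -0.01, -0.06 and 0.73, averaging 0.06 ± 0.48, with no common direction. Serpina5, the protein C inhibitor, which in mice is made mainly in the reproductive tract, was dim and ran from -0.53 to 0.31.

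Serping1, the C1 inhibitor that restrains complement and contact activation, had ratios of -0.25, -0.67, -0.68 and 0.03. Pair 4 alone was above 0, and the pairs averaged -0.39 ± 0.35 (SD, n = 4) with an unadjusted p of 0.127. Serpina11, a poorly characterised member that lies among the clade a genes on chromosome 12, had -0.34, -0.73, -0.91 and -0.02. All its pairs were below 0, pair 4 barely so, averaging -0.50 ± 0.40 with an unadjusted p of 0.0894. Serpina4-ps1, named as a pseudogene and picked out after its values were seen, had -0.35, -1.31, -0.20 and 0.78, with no common direction.

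Of the bright members 2 read higher in every pair. Serpina6 encodes corticosteroid-binding globulin, the plasma carrier of glucocorticoids, which does not inhibit proteases. Its ratios were 1.00, 0.32, 0.45 and 1.10, averaging 0.72 ± 0.39 (SD, n = 4), or 1.65-fold in the mutant, with an unadjusted p of 0.0309 (adjusted p = 0.736, limma). Pairs 1 and 4, which differ in dye orientation, were the high ones. Serpinf1 encodes pigment epithelium-derived factor, a secreted non-inhibitory serpin that opposes vessel growth. It had 0.13, 0.31, 0.56 and 0.42, averaging 0.35 ± 0.18 with an unadjusted p of 0.0765. The other hormone carrier, Serpina7 or thyroxine-binding globulin, which is X-linked, had 0.47, 0.33, -0.45 and -0.90. It was above 0 where the mutant was in Cy3 and below 0 where it was in Cy5, averaging -0.14 ± 0.65.

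The promoters of Serpina3n, Serpina11 and Serpinf1 are shown because, among bright members with an entry in the RefSeq promoter table, these have the lowest mean, the next lowest mean and the highest mean. Each runs 5′ to 3′ from 250 bases before to 50 bases after the start of the gene, and capitals mark matches to the motifs searched.
Serpina3n promoter, GRCm38.p6 chr12:104406458-104406757, plus strand: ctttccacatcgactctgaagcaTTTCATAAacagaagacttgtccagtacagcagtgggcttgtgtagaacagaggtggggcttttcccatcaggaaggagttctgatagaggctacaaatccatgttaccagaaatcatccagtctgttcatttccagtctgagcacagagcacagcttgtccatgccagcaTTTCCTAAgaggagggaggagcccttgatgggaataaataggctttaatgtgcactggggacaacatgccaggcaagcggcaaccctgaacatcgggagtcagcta
Serpina11 promoter, GRCm38.p6 chr12:103989894-103990193, minus strand: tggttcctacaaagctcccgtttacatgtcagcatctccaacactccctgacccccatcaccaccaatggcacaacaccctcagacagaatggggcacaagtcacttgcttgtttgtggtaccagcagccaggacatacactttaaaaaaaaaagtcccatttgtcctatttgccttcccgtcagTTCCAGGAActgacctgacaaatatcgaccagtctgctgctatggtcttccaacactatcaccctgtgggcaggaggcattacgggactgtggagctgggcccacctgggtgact
Serpinf1 promoter, GRCm38.p6 chr11:75422574-75422873, minus strand: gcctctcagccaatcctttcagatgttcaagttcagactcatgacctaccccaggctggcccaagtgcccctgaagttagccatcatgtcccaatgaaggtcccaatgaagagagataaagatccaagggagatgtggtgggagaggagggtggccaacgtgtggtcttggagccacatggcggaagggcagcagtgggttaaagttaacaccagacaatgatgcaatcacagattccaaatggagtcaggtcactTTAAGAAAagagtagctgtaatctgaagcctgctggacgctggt
The motifs were TTCNNNGAA for STAT factors, TTNNGNAA for C/EBP factors and GGGNNTTCC for NF-kB, and the HNF1 palindrome, each on both strands. Serpina3n held 2 C/EBP matches, TTTCATAA and TTTCCTAA, beginning 227 and 56 bases before the start, and no match to the STAT letters in this window. Serpina11 held 1 STAT match, TTCCAGGAA, beginning 65 bases before the start, and Serpinf1 held 1 C/EBP match, TTAAGAAA, beginning at base 7 of the transcript.

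Promoters were found for 45 members, some with more than 1 record, giving 53 sequences. The C/EBP letters, which are loose, occurred in 38 of these 53 sequences (71.7%), against 40.7% of 32851 mouse promoters of this length. STAT letters occurred in 10 (18.9%), against 8.30%, with 6 of 21 sequences (28.6%) in the secreted clades and 4 of 32 (12.5%) in the other clades. Some records of a gene overlap and repeat a match, as for Serpina11. Counted by gene, STAT letters occurred in 7 of 45 serpins, against 2582 of 27025 genes, with 4 of 18 in the secreted clades and 3 of 27 in the others. C/EBP letters occurred in 34 of 45 serpins, against 11930 of 27025 genes. NF-kB letters occurred in 3 (5.66%), against 5.82%, and the HNF1 motif in 0, against 3 of all promoters. Different motifs overlapped in 1 sequence, that of Serpina3g. A match describes these letters and does not show that a factor binds.

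In clade b, 4 members were above 0 in 4 of 4 pairs. Serpinb1a, an inhibitor of neutrophil elastase and cathepsin G, had ratios of 0.37, 0.39, 2.04 and 0.57, with pair 3 far above the rest. They averaged 0.84 ± 0.80 (SD, n = 4) with an unadjusted p of 0.0475. Its relative Serpinb1c had 0.82, 0.54, 1.34 and 0.63, averaging 0.83 ± 0.36 with an unadjusted p of 0.0133. Both genes lie in the clade b cluster on chromosome 13.

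Serpinb9g, a relative of the granzyme B inhibitor Serpinb9, had 0.44, 0.42, 1.20 and 1.14, averaging 0.80 ± 0.43 (SD, n = 4), or 1.74-fold, with the lowest unadjusted p of the family (0.00516). The pairs with the mutant in Cy5 lay above the other pairs. Serpinb6a, an inhibitor of cathepsin G, was at 0.21, 0.44, 0.26 and 0.27, a small and even difference averaging 0.29 ± 0.10, with an unadjusted p of 0.119. Serpinb12 had no value in pair 2 and 2.37, 0.57 and 0.22 in the others. The fit weighs its lone Cy3 pair as much as both Cy5 pairs together, which gave 1.38, with an unadjusted p of 0.00836, against a plain mean of 1.05 ± 1.15 (SD, n = 3).

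Serpinb9 itself, which protects cells from granzyme B, had -0.05, -0.22, -0.64 and -0.52. It was the single member of clades b, e and h below 0 in 4 of 4 pairs, averaging -0.36 ± 0.27 (SD, n = 4) with an unadjusted p of 0.0726. Serpinb8 had 3 values, -0.50, -0.00098 and -0.57 in pairs 2 to 4. The other 18 clade b members were dim, with average log2 intensities of 3.65 to 6.60, and their means divided evenly, 9 below 0 and 9 above. Single values among them ran from -6.08 to 3.21, and the SD over pairs had a median of 1.18. By gene cluster, the median log2 ratio was -0.02 over 12 clade b members on chromosome 1 and 0.27 over 13 on chromosome 13. Those on chromosome 1 had pair medians of 1.62, -0.38, -0.15 and -0.14, so pair 1 alone was above 0.

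**Figure D2:**
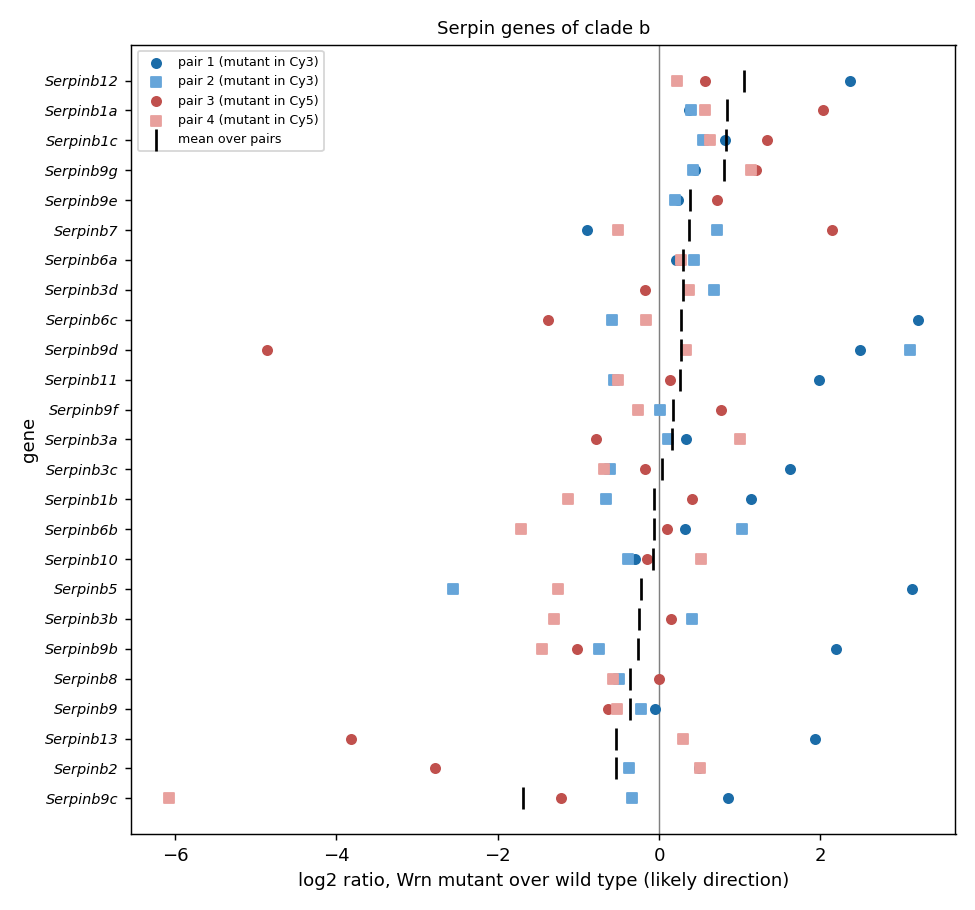
Log2 ratio of the 25 serpin genes of clade b, a point for each pair with a value and a bar for their mean. The horizontal axis is the log2 ratio of Wrn mutant over wild type in its likely direction. Serpinb9g, Serpinb1c, Serpinb1a and Serpinb6a are right of 0 in all 4 pairs, and most other clade b genes scatter on both sides.

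Several clade b serpins are expressed in leukocytes, so markers of other cells are given beside them. Of 15 measured Kupffer cell and macrophage markers, 15 had a mean above 0, with pair medians of 0.72, 1.04, -0.21 and 0.98. Among all named genes 46.5% of means were below 0. Neutrophil markers had 5 of 10 means above 0 and pair medians of -0.25, 0.50, -0.08 and -0.01. T and NK cell markers had 5 of 11 means above 0 and a median of -0.01, and B and plasma cell markers 8 of 10 and 0.82. Pair 3, where Serpinb1a and Serpinb1c were highest, had the lowest macrophage median of the 4 pairs. The part of these cells in the serpin values was not tested.

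The hepatocyte markers, from the cells that secrete plasma serpins, had a median of 0.07 and pair medians of 0.25, 0.34, -0.08 and -0.03. The list medians were 0.36 for sinusoidal endothelium, -0.19 for stellate cells and fibroblasts and -0.42 for cholangiocytes. They were 0.18 for megakaryocytes and platelets, 0.46 for erythroid cells, 0.36 for pancreatic acinar cells, 0.26 for adipocytes and 0.0014 for keratinocytes. No gene of these lists passed the adjusted test.

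Outside clade b, Serpine2, a protease nexin, had pairs from -0.83 to 0.34, averaging -0.40 ± 0.51. Serpinh1, the collagen chaperone known as HSP47, had pairs from -0.46 to 0.39, averaging -0.14 ± 0.38. Neither had a common direction.

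Serpina12, or vaspin, a factor first described in adipose tissue, had 3.36, -0.67 and -0.70 in pairs 1, 3 and 4. The signs followed the dye orientation. The fit gave 1.34 with an unadjusted p of 0.00718, since pair 1 counts as much as pairs 3 and 4 together, against a plain mean of 0.66 ± 2.34 (SD, n = 3). Serpini1, neuroserpin, had 0.88 and -0.30 in pairs 1 and 2, and Serpini2, a pancreatic serpin, had -1.48 and 2.03 in pairs 1 and 3. Both were too incomplete to test. Serpina9, a serpin of germinal-centre B cells, ran from -1.12 to 1.80.

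Bright and dim serpins differed in how closely their pairs matched. The 15 members with an average log2 intensity of at least 10 all belong to the secreted clades, the dimmest of them at 11.04 (Serpina1d), and the brightest of the other 40 lies at 9.36 (Serpine2). The SD over pairs had a median of 0.30 in the bright members and 0.77 in the dim ones with at least 3 values, against 0.24 and 0.58 over named genes divided the same way. Of the 15 bright members 12 had a mean below 0, with a median of -0.18. Over 2566 bright named genes 48.8% of means were below 0, with a median of 0.01.

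All 15 bright members had 4 values. Of these 7 were lower in every pair, namely Serpina3n, Serpina10, Serpina11, Serpinf2, Serpina1d, Serpina1c and Serpina3k, and 2 were higher. Among bright named genes 16.5% were lower and 19.1% higher in every pair. For Serpina3k, Serpinf2 and Serpina11 the value of pair 4 was close to 0. Of 28 dim serpins with 4 values, 1 was lower and 6 were higher in every pair, against 9.02% and 9.48% of dim named genes.

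**Figure D3:**
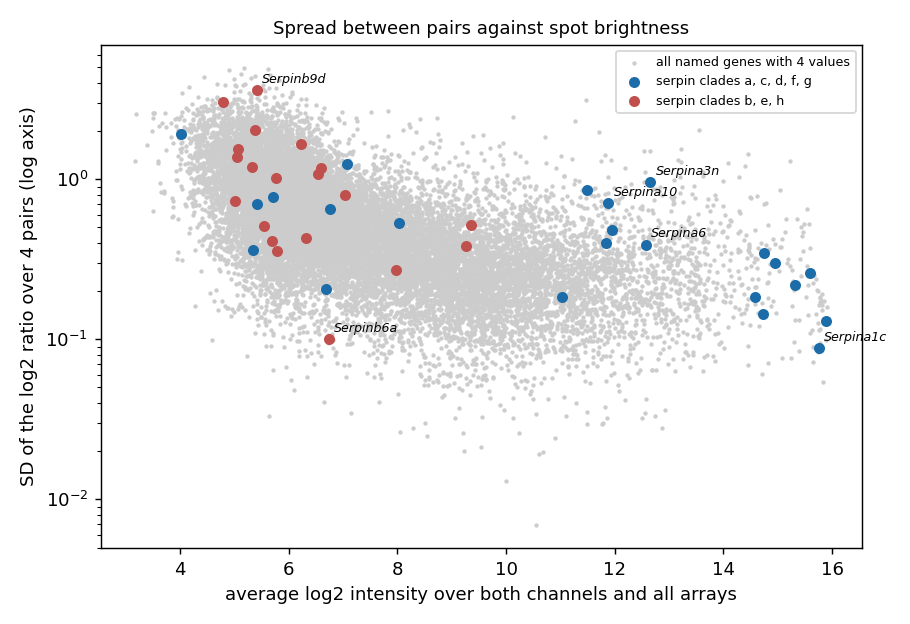
SD of the log2 ratio over 4 pairs (vertical, log axis) against average log2 intensity (horizontal) for named genes with 4 values (grey) and serpins of the secreted clades (blue) and of clades b, e and h (red). Serpina1c has an SD of 0.09 and Serpinb9d one of 3.62, while Serpina3n, at 0.96, lies high for its brightness.

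Many genes of the secreted clades had the same order of pairs, an order also common in some other lists but not in the hepatocyte markers. Pair 4 was the highest of the 4 in 16 of 23 members (69.6%), against 26.4% of named genes with 4 values, and pair 3 the lowest in 13 (56.5%), against 25.0%. Both held in 10 members (43.5%), against 7.75%. In the 15 bright serpins both held in 6 (40.0%), against 11.1% of bright named genes, of which 33.5% had pair 4 highest. Among Kupffer cell and macrophage markers with 4 values pair 3 was the lowest in 92.9% and both held in 7 of 14, and among the regulators of serpin genes both held in 29.4%. In other lists both held less often: 7.14% of hepatocyte markers, 12.0% of protease targets, 14.3% of other protease inhibitors and 0% of neutrophil markers. Taken singly, pair 3 was lowest in 52.4% of other protease inhibitors, 40.0% of protease targets and 47.1% of regulators. It was lowest in 35.7% of hepatocyte and 55.6% of neutrophil markers. Pair 4 was highest in 52.4%, 48.0%, 47.1%, 7.14% and 11.1% of these lists, in the same order. Across the 15 bright serpins the arrays correlated at 0.45 to 0.82. These are descriptions: the genes share arrays and RNA, many are neighbours on chromosome 12, and some probes may cross-hybridise.

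Genes that work with serpins were read from the same fit, and none passed the adjusted test. The proteases that serpins target had 13 means above 0 and 12 below over 25 genes, with a median of 0.00072. Plat and Plau, the plasminogen activators, were above 0 in every pair, averaging 0.63 ± 0.35 (SD, n = 4) and 0.74 ± 0.46, with unadjusted p of 0.0192 and 0.0336. Both probes were dim, with average log2 intensities of 5.98 and 5.21. Plat was higher with the mutant in Cy3 (0.73 and 1.03) than in Cy5 (0.56 and 0.20). Masp1, a lectin pathway protease held by C1 inhibitor, was below 0 in every pair, averaging -0.69 ± 0.24 with an unadjusted p of 0.0109. It was lower with the mutant in Cy3 (-0.74 and -0.99) than in Cy5 (-0.61 and -0.43). Over the list of 25, 2 genes were higher and 3 lower at an unadjusted p under 0.05, against 4.74% and 4.52% of named genes.

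Other plasma and tissue protease inhibitors had 13 means above 0 and 10 below over 23 of 25 listed genes, with a median of 0.07. Itih3, an inter-alpha-trypsin inhibitor heavy chain, had ratios of -0.998, -1.18, -1.84 and -0.18, averaging -1.05 ± 0.68 (SD, n = 4) with an unadjusted p of 0.0336. As in Serpina3n, pair 3 was the lowest and pair 4 the highest. Timp4, a metalloproteinase inhibitor, was above 0 in every pair, averaging 0.63 ± 0.58 with an unadjusted p of 0.0179. Its values were higher with the mutant in Cy3 (0.90 and 1.31) than in Cy5 (0.13 and 0.17). At an unadjusted p under 0.05, 1 of the 23 genes was higher and 1 lower, against 4.74% and 4.52% of named genes.

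Clearance receptors and binding partners had 5 means above 0 and 11 below over 16 of 18 genes, with a median of -0.17. Vldlr, a receptor that takes up protease-serpin complexes, was above 0 in every pair, averaging 0.85 ± 0.48 (SD, n = 4) with an unadjusted p of 0.00407. Its values were lower with the mutant in Cy3 (0.45 and 0.42) than in Cy5 (1.25 and 1.29). The dye term takes up this difference, so it does not enter the p value. The probe was dim, with an average log2 intensity of 6.20. Known regulators of hepatocyte serpin genes had 8 means above 0 and 10 below over 18 genes, with a median of -0.04. Cebpd, a C/EBP factor of the acute phase, was above 0 in every pair, averaging 0.72 ± 0.29 with an unadjusted p of 0.0165. Socs3, a feedback inhibitor induced by STAT3 and singled out after its values were seen, had -0.55, -0.64, -3.00 and 0.78, with pair 3 the lowest and pair 4 the highest.

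Collagens and collagen-modifying partners of Serpinh1 had 5 means above 0 and 7 below over 12 genes, with a median of -0.24. P4hb, protein disulfide isomerase, was below 0 in every pair, averaging -0.43 ± 0.08 (SD, n = 4) with an unadjusted p of 0.0406. It was slightly higher with the mutant in Cy3 (-0.32 and -0.43) than in Cy5 (-0.49 and -0.49). At an unadjusted p under 0.05 the clearance, regulator and collagen lists had 1, 1 and 0 genes higher and 0, 0 and 1 lower. These lists had 16, 18 and 12 tested genes, and among named genes 4.74% were higher and 4.52% lower.

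**Figure D4:**
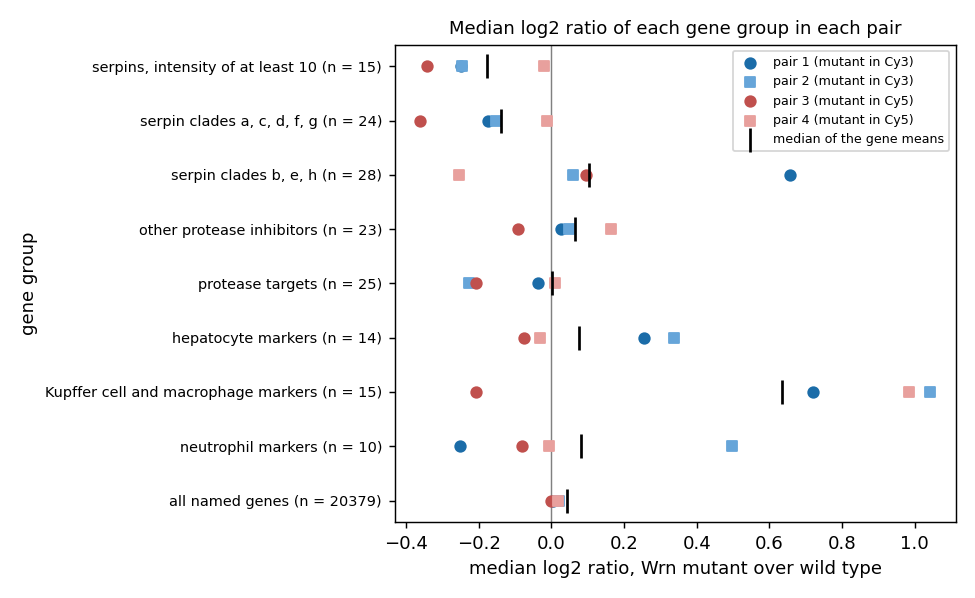
Median log2 ratio of each gene group in each of 4 pairs (points) and the median of the gene means (bar), with the number of genes with at least 3 values in brackets. The horizontal axis is the median log2 ratio of Wrn mutant over wild type in its likely direction. The secreted serpin clades lie left of 0 in every pair, from -0.36 in pair 3 to -0.01 in pair 4, while clades b, e and h spread from -0.26 to 0.66.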

How the data were processed

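Per the file headers, the authors deposited log2 ratios for every probe on each array. The deposited gene table adds an average log2 intensity, and also a fold change and a p-value that were not used here. Limma is named in the submitters' processing notes, while its version, any correction for background, normalization or filter, and how 1 probe was chosen per gene were not given in the sources.

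Of 41174 probes, 35280 had 4 values, and the 40238 with at least 3 were fitted in R 4.3.3 with limma 3.58.1 (lmFit and eBayes, genotype and a dye term, 2 residual degrees of freedom with 4 values), with Benjamini-Hochberg adjustment over all of them at 0.05. The fit was tested on simulated data with independent normal noise, as a check of the code and not of these results. Pairs 1 to 4 lacked 3547, 1142, 1070 and 1195 values. The number of arrays limits the precision. A group was described by the median over its members with at least 3 values, each at its mean over pairs, and mean ± SD is over pairs.

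The members, gene lists, naming rule and tests were chosen with earlier results of these data known, and the division at an intensity of 10 after the intensities were seen. Members named with values were the Serpina1a to Serpina1e and Serpina3 genes present, the best known plasma and tissue serpins, and any other with 1 direction in every pair and an unadjusted p under 0.05 or a mean over 1 in size. This gave 34 members, 1 of which is not reported here. The other 21 are given by ranges and counts. From each list of partner genes, up to 3 with the smallest unadjusted p under 0.05 and 1 direction in 4 pairs were named. Alternatives were array centring and scaling, complete probes, an intensity filter, the opposite reading of the dye swap, leaving out each pair, no dye term, a prior following intensity, named probes alone, robust eBayes, array weights, an unmoderated test, medians over pairs, and the secreted clades without Serpina1 and Serpina3 genes. Protein sequences were not analysed here.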

Additional observations from a re-analysis of the deposited data

Results flagged for a closer look

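Each of 31 serpin results was searched for a single pair lying apart, and chance would give about 1.55 of them. The search flagged 1 gene, Serpinb1a, whose pair 3 had a log2 ratio of 2.04, while its other pairs had 0.37 to 0.57. Serpina12, with 3 values, was not flagged, though its pair 1 also lay apart, at 3.36 against -0.67 and -0.70.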

How the results depend on the processing

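No serpin passed an adjusted p of 0.05 under any alternative run. The lowest adjusted p of any member was 0.0894, for Serpina3n with a prior following intensity and no dye term (limma), a combination added after the data were seen, and the adjusted p of Serpina3n ran up to 0.976, under the opposite reading of the dye swap. Over all probes the count of 0 (2673 at an unadjusted p under 0.05) became 1 among named probes brighter than the median, 42 with a prior following intensity and 40 with that prior and no dye term, and was 0 in the other alternatives, the unmoderated test among them. The median of all serpins was 0.04 under the opposite reading, against -0.07 as reported, and -0.15 to -0.06 without 1 pair. The median of the secreted clades kept its sign in every alternative run, at -0.20 to -0.09 without 1 pair, and that of clades b, e and h ran from -0.22 to 0.29 without 1 pair. Of 31 named members in the fit, 14 kept their direction throughout and 13 turned only under the opposite reading. The 14 include Serpina12, Serpinb12 and Serpinb8, which had 3 values. For these, no run could leave out a measured pair, so their direction was not put to that check. Without pair 1, Serpina12 would keep only its values of -0.67 and -0.70. That reading, by its construction, turned Serpina10 (0.25), Serpina1b (0.22), Serpina3b (0.58), Serpina3f (-0.26), Serpina3g (-0.073), Serpina3m (0.11), Serpina5 (0.18), Serpina6 (-0.060), Serpina7 (0.54), Serpinb1a (-0.46), Serpinb1c (-0.15), Serpinb9 (0.22), Serpinb9g (-0.37), Serpind1 (-0.28), Serpine2 (0.15) and Serpinf1 (-0.14). Leaving out 1 pair turned Serpina3b (-1.24 to 0.93), Serpina3g (-0.056 to 0.55), Serpind1 (-0.14 to 0.26) and Serpinh1 (-0.36 to 0.068), in fits that weigh the lone pair of a dye orientation like both others. Without pair 2, Serpind1 was -0.039. Each log2 ratio is a difference within a pair, so every fit here, the unmoderated one-sample test included, is a paired analysis, and no separate replicate block could be added. With 4 arrays, dim probes limit what can be measured, most of all in clade b.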
